A study of Mus musculus with 8 samples.

Results

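Neurons of the mouse hippocampus are ordered in subfields that can be told apart by the genes they transcribe. Marker genes of 4 subfields were followed in the hippocampus of young and very old mice, chosen by gene symbol and by their known place of expression: Prox1, C1ql2, Dsp and Trpc6 for granule cells of the dentate gyrus, Wfs1, Fibcd1 and Mpped1 for CA1, Bok for CA3, and Pcp4 and Rgs14 for CA2. These 10 genes were measured by 11 of the 39429 probes on the arrays, among 19751 genes that could be named. RNA of the hippocampus, labelled with Cy3, was read on single-colour Agilent microarrays, 1 array per sample. The 3M group held 4 samples from mice aged 3 months and the 29M group 4 samples from mice aged 29 months, close to the end of the life span of this strain. All 8 samples came from wild-type C57BL/6J mice that received no treatment and were kept in their home cage, and the whole hippocampus had been dissected by hand, so no subfield was isolated. The arrays address which transcripts differ between the ages. Nothing in the labels states whether a sample came from 1 animal or from several, and p-values measure the spread between these samples.

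The hippocampus passes signals along a chain. Granule cells of the dentate gyrus receive input from the entorhinal cortex and contact CA3 pyramidal cells and hilar mossy cells through the mossy fibres, CA3 cells project to CA1 through the Schaffer collaterals, and CA1 is the main output. CA2 is a small field between CA3 and CA1 that takes part in social memory and in which synaptic potentiation is restrained. In RNA of whole hippocampus the level of a marker gene depends on how many cells of its subfield were in the sample and on how much of the transcript each cell held, and fewer cells of a type and less RNA per cell cannot be told apart.

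Between 76.2 and 85.0% of the 43020 spots on an array were well above background, and none was saturated. The 3 slides each carried both groups. Values are log2 intensities on which arrays had been brought to a common scale by variance stabilising normalization. A level can be compared between arrays for 1 probe but not between probes. A gene was called when its adjusted p in limma (Benjamini-Hochberg over 39408 probes tested) was under 0.1 and its log2 change, 29M minus 3M, was at least 0.5 in size, which is 1.414-fold. All 10 marker genes were well above background on all 8 arrays, so each labelled subfield was represented by transcripts measured in every sample.

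The sequence upstream of the transcription start is shown for Pcp4, the marker with the smallest p-value in the comparison, and for Wfs1, the marker with the largest positive log2 change. Both are the 250 bases before the RefSeq start in the GRCm38.p6 assembly, written 5' to 3' on the strand of the gene. Capitals mark matches, on either strand, to a TATA box (TATAAA), a GC box (GGGCGG), a cAMP response element (TGACGTCA), an E-box (CANNTG) or a CCAAT box (CCAAT). The Pcp4 window lies at chr16:96467356-96467605 on the plus strand, and the Wfs1 window at chr5:36988983-36989232 on the minus strand.
Pcp4: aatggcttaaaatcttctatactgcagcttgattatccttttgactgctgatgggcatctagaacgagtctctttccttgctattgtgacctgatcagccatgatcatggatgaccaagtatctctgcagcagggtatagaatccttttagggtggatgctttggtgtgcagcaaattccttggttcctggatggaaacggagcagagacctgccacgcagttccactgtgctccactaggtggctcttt
Wfs1: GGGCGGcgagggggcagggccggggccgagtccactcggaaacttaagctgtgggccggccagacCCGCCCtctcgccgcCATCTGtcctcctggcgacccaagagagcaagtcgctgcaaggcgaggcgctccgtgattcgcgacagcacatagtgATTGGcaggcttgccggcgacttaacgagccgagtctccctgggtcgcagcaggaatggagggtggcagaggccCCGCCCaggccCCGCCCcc
The Pcp4 window held 46.8% G and C and none of the 5 motifs. The Wfs1 window held 69.6% G and C, 4 GC boxes, 1 E-box and 1 CCAAT box, none overlapping another. Of the 10 marker genes 9 had an entry, with 11 promoters in all, and their median content of G and C was 64.8%, against 52.4% over 32851 mouse promoters. A GC box was found in 7 of the 11 promoters (6 genes) and in 32.7% of all promoters. An E-box was found in 4 of the 11 and in 66.2% of all promoters, and a CCAAT box in 1 of the 11 and in 33.8%. A TATA box was found in 1, upstream of Prox1, and in 12.4% of all promoters, and the cAMP response element in none and in 1.55%. These are matches of letters and no evidence of binding.

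None of the 10 marker genes was called in either direction by limma, where 2.17% of the 19742 genes tested were called (1.46% higher and 0.709% lower in 29M). Nor was any of their 11 probes, among 1.97% of all probes called (1.16% higher and 0.815% lower). At an unadjusted p under 0.05 the count was 1 of 10, Pcp4, against 17.3% of all genes. Log2 changes of the 10 genes lay between -0.35 (Pcp4) and 0.26 (Wfs1), with 4 above and 6 below 0. Their median was -0.02, and the median over all genes was 0.01. All 10 changes were under 0.5 in size, as were those of 95.7% of all genes. Levels of the 2 groups did not overlap for 1 of the 10 genes, again Pcp4, whereas this held for 11.4% of all genes. Both counts lay near the share over all genes.

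**Figure D1:**
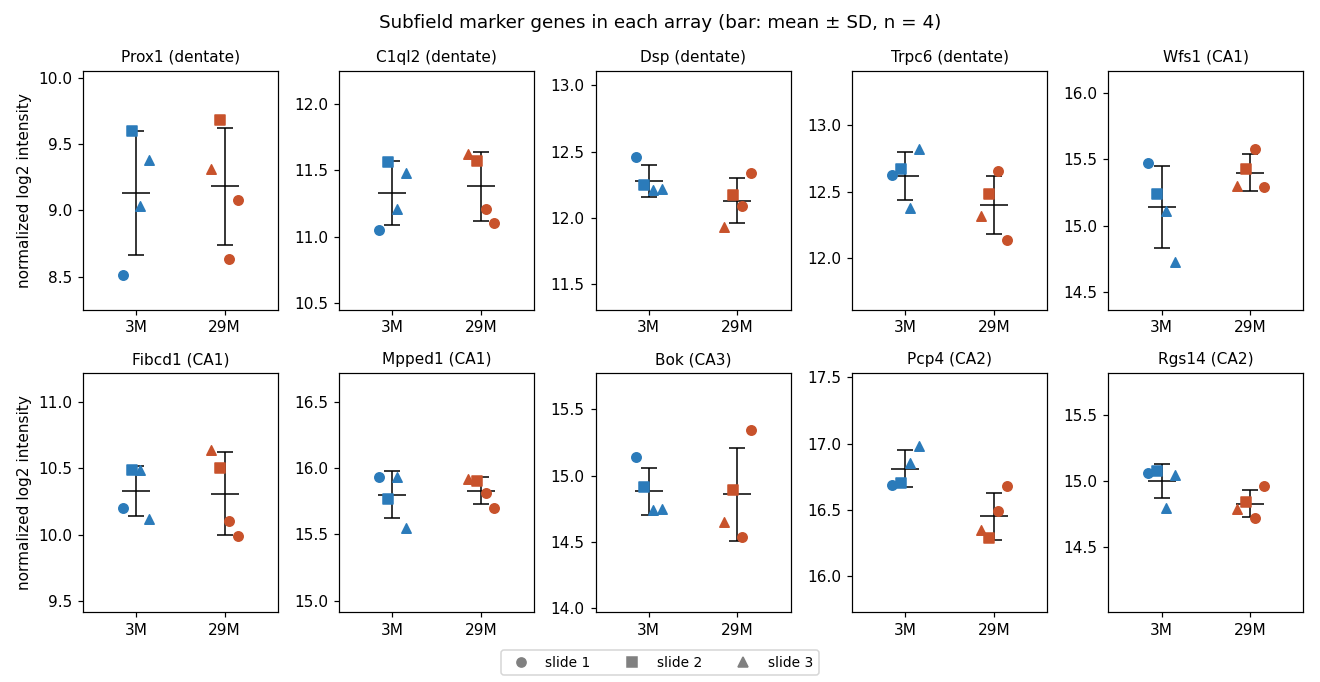
Normalized log2 intensity of each of the 10 subfield marker genes in every array (points; circle, square and triangle for slides 1, 2 and 3), with mean and SD of the 4 arrays per group as bars; all panels span the same number of log2 units. The 3M and 29M points overlap for every gene except Pcp4, where the lowest 3M array stands at 16.69 and the highest 29M array at 16.68.

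Dentate granule cells were represented by 4 genes, and no difference between the ages passed the test for any of them. Prox1 encodes the homeobox factor that specifies granule cells and maintains their identity. Its log2 level in 3M replicates 1 to 4 was 8.51, 9.60, 9.03 and 9.38, and in 29M replicates 1 to 4 it was 9.31, 9.68, 8.63 and 9.08. The groups overlapped over nearly their whole range, and the lowest and the highest array, 3M replicate 1 and 29M replicate 2, differed by more than the other markers did. Group means were 9.13 ± 0.47 for 3M and 9.18 ± 0.44 for 29M (SD, n = 4 each), and their log2 change of 0.05 had a 95% confidence interval from -0.55 to 0.64 (SE 0.26, limma adjusted p = 0.950).

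C1ql2 encodes a secreted protein of the C1q family that granule cells place at mossy fibre synapses, where it organises glutamate receptors. Its levels were 11.05, 11.56, 11.21 and 11.48 in 3M and 11.62, 11.57, 11.21 and 11.10 in 29M, so both groups spanned the same values. The log2 change was 0.05, with a 95% confidence interval from -0.29 to 0.39 (SE 0.15, limma adjusted p = 0.902). Trpc6 encodes a cation channel opened by diacylglycerol. Its levels were 12.63, 12.67, 12.38 and 12.82 in 3M and 12.32, 12.48, 12.66 and 12.14 in 29M. Of the 29M arrays, replicates 1 and 4 stood below every 3M array and the others within their range. The log2 change was -0.23 (95% confidence interval from -0.52 to 0.07, SE 0.13, limma adjusted p = 0.424), and without 29M replicate 4 it was -0.14.

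Dsp encodes desmoplakin, the protein that ties desmosomes to intermediate filaments, and its transcript marks granule cells in the brain. It was the only marker with 2 probes. The brighter probe, A_51_P101460, gave 12.46, 12.25, 12.21 and 12.22 in 3M and 11.93, 12.17, 12.09 and 12.34 in 29M. Apart from 29M replicate 4, the 29M arrays lay below all 3M arrays, and 3M replicate 1 lay above all others. The log2 change of -0.15 had a 95% confidence interval from -0.39 to 0.08 (SE 0.10, limma adjusted p = 0.497), and it was -0.09 without 3M replicate 1 and also without 29M replicate 1. The other probe, A_51_P201884, was not well above background on any array, with values from 5.28 to 5.58, and bears on no difference.

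CA1 pyramidal cells were represented by 3 genes, of which Wfs1 had the largest change. Wfs1 encodes wolframin, a membrane protein of the endoplasmic reticulum. Its levels were 15.47, 15.24, 15.11 and 14.73 in 3M and 15.30, 15.43, 15.58 and 15.29 in 29M. The 29M arrays lay in the upper part of the range, 3M replicate 4 was the lowest array, and 3M replicate 1 was exceeded by 1 of the 29M arrays. Without 3M replicate 4 the change was 0.13, and without 3M replicate 1 it was 0.38. With processed signals it was 0.12 after scaling by the 75th percentile and 0.13 after variance stabilisation. Group means were 15.14 ± 0.31 for 3M and 15.40 ± 0.14 for 29M (SD, n = 4 each), and the change of 0.26 on the log2 scale came with a 95% confidence interval from -0.07 to 0.60 (SE 0.15, limma adjusted p = 0.414).

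Fibcd1 encodes a membrane receptor that binds acetylated sugars such as chitin. Its levels were 10.20, 10.49, 10.49 and 10.12 in 3M and 10.64, 10.50, 10.10 and 9.99 in 29M. The 29M arrays held both the highest and the lowest value, and the 3M arrays lay between. The log2 change was -0.02 (95% confidence interval from -0.37 to 0.34, SE 0.16, limma adjusted p = 0.971). Mpped1 encodes a protein with a metallophosphoesterase domain. It gave 15.93, 15.77, 15.93 and 15.55 in 3M and 15.92, 15.90, 15.81 and 15.70 in 29M, with all 29M arrays inside the range of the 3M arrays. Its log2 change of 0.04 had a narrow interval, from -0.20 to 0.27 (SE 0.10, limma adjusted p = 0.898).

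CA3 had a single marker, Bok, which encodes a member of the BCL2 family of apoptosis regulators. Its levels were 15.14, 14.91, 14.74 and 14.75 in 3M and 14.65, 14.89, 14.54 and 15.34 in 29M. Both the lowest and the highest array were 29M, replicates 3 and 4. The log2 change was -0.03, with a 95% confidence interval from -0.41 to 0.35 (SE 0.17, limma adjusted p = 0.954). Without 29M replicate 4 the change was -0.19 and without 29M replicate 3 it was 0.08, so 1 array decided its sign. In 29M replicate 4, where Bok was highest and Trpc6 and Fibcd1 were lowest, the mean of 7 thalamic marker genes stood 0.30 above their mean over the arrays, against -0.13 to 0.05 in the others. This came from Prkcd (13.95), Ramp3 (12.67) and Slc17a6 (12.82), each highest on that array, while Tcf7l2, Lef1, Rgs16 and Plekhg1 were within the range of the other arrays, and the part of adjoining tissue in the marker values was not tested.

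The CA2 genes had the largest log2 changes relative to the spread of their arrays, -2.17 times the pooled SD for Pcp4 and -1.47 times for Rgs14, while neither was called. Pcp4 encodes a small protein that binds calmodulin and speeds its exchange of calcium. Its levels were 16.69, 16.70, 16.85 and 16.98 in 3M and 16.35, 16.29, 16.49 and 16.68 in 29M. Every 29M array lay below every 3M array, with the nearest pair, 29M replicate 4 and 3M replicate 1, almost level. Group means were 16.81 ± 0.14 for 3M and 16.45 ± 0.18 for 29M (SD, n = 4 each). The log2 change of -0.35 (SE 0.11) had a 95% confidence interval from -0.60 to -0.11, which excludes 0, and the level in 3M was 1.28-fold that in 29M. The p-value was 0.0095 before adjustment, and with the limma adjusted p of 0.150 the gene was not called. The change was also smaller than the size threshold.

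Within slides, which held 1 or 2 arrays of a group, the Pcp4 change was -0.11 on slide 1, -0.41 on slide 2 and -0.57 on slide 3. With groups that do not overlap, its sign within a slide is fixed and no further support. The separation of the groups was kept with normexp background correction and quantile normalization, where the lowest 3M array stood at 16.63 and the highest 29M array at 16.62. It was lost when processed signals were scaled to the 75th percentile (4.10 against 4.14) and when variance stabilisation started from processed signals (16.55 against 16.57). Without 3M replicate 1 the adjusted p was 0.103, the lowest that any marker reached in the 18 alternative settings.

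Rgs14 encodes a regulator of G protein signalling that restrains potentiation at CA2 synapses. Its levels were 15.06, 15.08, 14.80 and 15.05 in 3M and 14.79, 14.84, 14.72 and 14.96 in 29M. Apart from 3M replicate 3, the 3M arrays stood above all 29M arrays, and the groups overlapped through that array. The log2 change was -0.17, with a 95% confidence interval from -0.38 to 0.03 (SE 0.09, limma adjusted p = 0.384), and the p-value before adjustment was 0.0931. Within slides it was -0.22, -0.24 and -0.14.

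**Figure D2:**
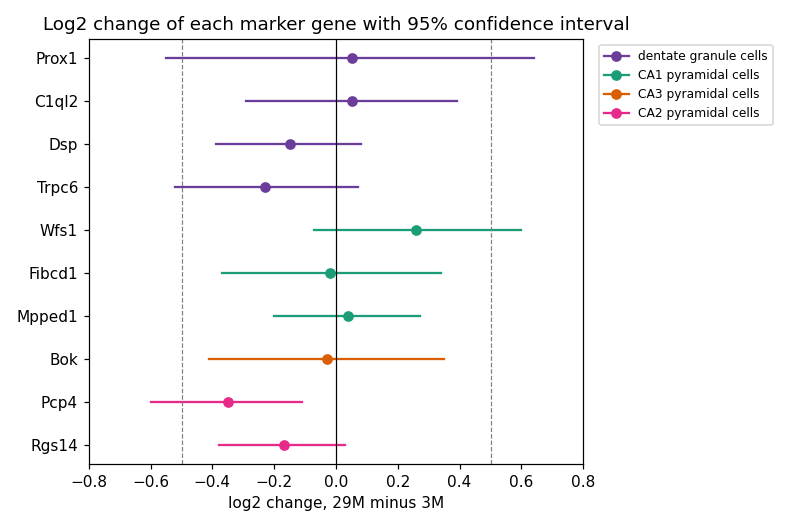
Log2 change of each marker gene, 29M minus 3M (point), with its 95% confidence interval from limma (line), coloured by subfield; dashed lines mark the size of 0.5 needed for a call. Intervals of 9 genes include 0, and the Pcp4 interval, from -0.60 to -0.11, lies below it.

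The confidence intervals bound the size of the changes. For 6 of the 10 genes the whole interval lay inside a log2 change of 0.5 in either direction, namely C1ql2, Dsp, Fibcd1, Mpped1, Bok and Rgs14. The intervals of Prox1, Trpc6, Wfs1 and Pcp4 reached beyond it on at least 1 side, and the widest bound was 0.64 for Prox1. With the SE of these genes and the highest p that led to an adjusted p under 0.1 (0.00363), Prox1 would have needed a log2 change of 1.01 to be called, Bok 0.65, Fibcd1 0.60, C1ql2 0.59 and Wfs1 0.57. For Pcp4 the size threshold of 0.50 was the limit. The markers thus differed in precision. The SD of the arrays, pooled over both groups, was 0.46 for Prox1 and 0.12 for Rgs14, with the other 8 genes between 0.15 and 0.28. With slide as a fixed block the SE was 0.14 for Prox1 and 0.10 for C1ql2, against 0.26 and 0.15 without it. Their log2 changes were then 0.19 and 0.14, and neither gene was called. For Trpc6, Mpped1 and Rgs14 the SE was larger with this block.

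To compare subfields, each gene was set to its mean over the 8 arrays and the genes of a subfield were averaged. Dentate values were -0.14, 0.21, -0.10 and 0.17 in 3M and -0.01, 0.17, -0.16 and -0.14 in 29M, and the groups overlapped. The lowest dentate values were those of the arrays on slide 1, 3M replicate 1 and 29M replicates 3 and 4. CA1 values were 0.07, 0.03, 0.04 and -0.33 in 3M and 0.15, 0.14, 0.03 and -0.14 in 29M, also with overlap. CA2 values were 0.11, 0.12, 0.06 and 0.25 in 3M and -0.20, -0.21, -0.17 and 0.05 in 29M. Only the CA2 average, which rests on Pcp4 and Rgs14, kept the groups apart. It stood at 0.06 in the lowest 3M array against 0.05 in the highest 29M array, and it was described with no test. Pcp4 kept the groups apart by itself and Rgs14 did not, so the average is no further support. For the 11 further CA2 genes described below the average was -0.26 to 0.13 in 3M and -0.03 to 0.11 in 29M, with overlap. In RNA of whole hippocampus the cells that held the Pcp4 transcript were not told apart. Subfields did not move together over the arrays. In 3M replicate 4 the CA1 average was the lowest of all arrays while the dentate average was 0.17, and no array held the highest or the lowest value of more than 2 of the 10 genes.

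**Figure D3:**
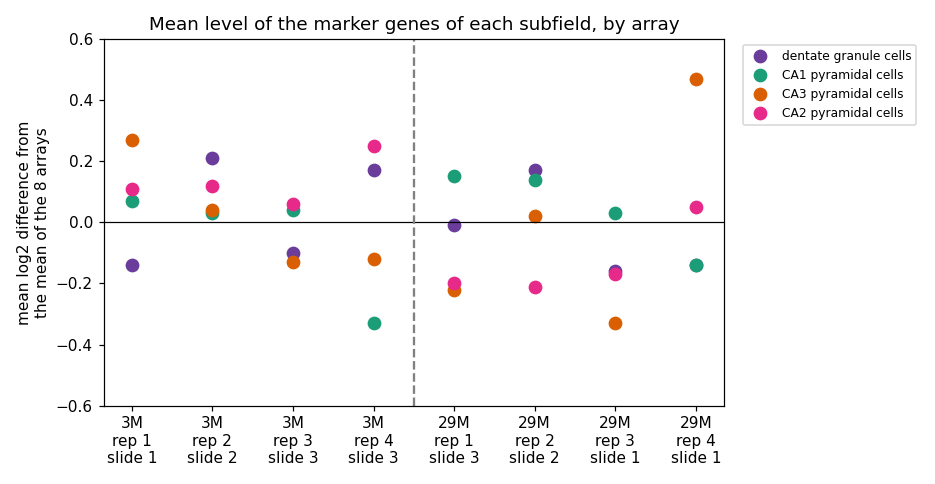
Mean log2 difference of the marker genes of each subfield from their mean over the 8 arrays, for every array, with its slide; CA3 is Bok alone. Only the CA2 points, from Pcp4 and Rgs14, are all higher in 3M (0.06 to 0.25) than in 29M (-0.21 to 0.05). The dentate, CA1 and CA3 points of the 2 groups overlap. The 11 further CA2 genes, with a median change of 0.09, are not drawn.

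Further markers of the same subfields and of hilar mossy cells gave 40 more genes, 37 of them well above background on all 8 arrays. None of the 40 was called by limma, and 6 had an unadjusted p under 0.05, against 17.3% of all genes. With each gene given by its brightest probe, their log2 changes lay between -0.37 and 0.37, with 21 above and 19 below 0 and a median of 0.04. The median was -0.02 for 9 dentate genes, -0.16 for 5 CA1 genes, 0.10 for 10 CA3 genes, 0.09 for 11 CA2 genes and 0.05 for 5 mossy cell genes. The groups did not overlap for 3 of the 40 genes, Necab2, St18 and Csf2rb2, against 11.4% of all genes. Another 16 probes of these genes, which are dimmer, gave changes from -0.62 to 0.74, and limma called none of them, with an unadjusted p under 0.05 for 4. Of these probes, named after their values were seen, 2 of Cpne4 stood at -0.61 (adjusted p = 0.123 in limma) and -0.53 (0.214), where its brightest probe gave 0.12. The Cpne4 probe at -0.61 was nearly as bright, with means of 14.18 in 3M and 13.57 in 29M, against 13.87 and 13.99. The others beyond 0.5 in size were 1 probe each of Dock10 (-0.62), Npy2r (0.65) and Sostdc1 (0.74), all well above background on all 8 arrays. The brightest Sostdc1 probe gave 0.22. Both Sostdc1 probes were lowest in 3M replicate 3 (12.59 and 11.60), where the mean of the choroid plexus genes was also lowest (-0.80). The part of choroid plexus in the Sostdc1 values was not tested. The 11 further CA2 genes had changes from -0.16 to 0.37 by their brightest probes, above those of Pcp4 at -0.35 and Rgs14 at -0.17, a difference that was not tested.

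Among these lists, the gene whose brightest probe had the largest change in each subfield was examined, so the dimmer probes just given had no part in the choice. Of the further CA2 genes this was Necab2, which encodes a neuronal calcium-binding protein, with 15.54 to 15.73 in 3M and 15.85 to 16.08 in 29M. All 29M arrays were above all 3M arrays. Its log2 change of 0.37 (SE 0.09) had a limma adjusted p of 0.0718, and it was not called because the change was under 0.5. Over the 18 alternative settings the change ran from 0.27 to 0.41 and the limma adjusted p from 0.0375 to 0.315. With processed signals the adjusted p was 0.315 after scaling by the 75th percentile and 0.233 after variance stabilisation. With slide as a fixed block it was 0.138. Ndst4, a heparan sulfate sulfotransferase gene from the CA1 list, stood at -0.36 (SE 0.11) with an adjusted p of 0.144 in limma, and its other probe gave -0.35. From the dentate list Lct, the lactase gene, gave a change of -0.37 (SE 0.15) and an adjusted p of 0.258 in limma. It was -0.23 without 29M replicate 4, and with processed signals -0.22 after scaling by the 75th percentile and -0.21 after variance stabilisation. Calb1 of the same list, named after its values were seen, had the same rounded change of -0.37 (SE 0.12, limma adjusted p = 0.155). For Calb1, 3 of the 29M arrays lay below every 3M array. The CA3 marker Coch, which encodes cochlin, gave a change of -0.28 (SE 0.26) and an adjusted p of 0.630 in limma, and without 3M replicate 1 it was -0.55 with an adjusted p of 0.0581, past both thresholds. Csf2rb2, a cytokine receptor gene from the mossy cell list, gave a change of 0.34 (SE 0.10) and an adjusted p of 0.133 in limma, while its other probe gave 0.01.

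Genes shared by excitatory neurons of all subfields and genes of other cell types and neighbouring regions were measured beside the markers. Of the 8 neuronal genes only Nrgn was called, lower in 29M, as were 0.709% of all genes. Nrgn encodes neurogranin, which binds calmodulin in dendritic spines. It ranged from 16.49 to 16.85 in 3M and from 15.80 to 16.36 in 29M, so every 29M array was below every 3M array. Group means were 16.67 ± 0.16 for 3M and 16.13 ± 0.25 for 29M (SD, n = 4 each). The log2 difference was -0.54 (SE 0.13), with an adjusted p of 0.0872 in limma. The call held in 7 of 18 alternative settings and was lost in 11, with changes from -0.61 to -0.43. With all 8 arrays kept, no other normalization gave a call. The limma adjusted p was 0.112 for normexp with quantile normalization. With processed signals it was 0.176 after scaling by the 75th percentile and 0.122 after variance stabilisation. Nor was Nrgn called when the model held a fixed term for slide (-0.47, adjusted p = 0.15) or the replicate block (0.163). Leaving out 3M replicate 2, 3 or 4 or 29M replicate 1, 2 or 4 removed the call too. Within slides 1, 2 and 3 the change was -0.41, -0.51 and -0.52, with a sign that is fixed where groups do not overlap and is no further support. The median change of the 8 neuronal genes was -0.10, and the other 7 were not called.

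None of the genes of neocortex (7), thalamus (7), choroid plexus (7), astrocytes (6), oligodendrocytes (6), microglia (6) and endothelial cells (6) was called, and the medians of these lists lay between -0.07 (neocortex) and 0.34 (microglia). An unadjusted p under 0.05 was found for 4 of the 6 microglial and 2 of the 6 endothelial genes, against 17.3% of all genes. By their brightest probes, changes were above 0 for all 6 microglial, all 6 oligodendrocyte and 5 of the 6 endothelial genes. The median over all genes was 0.01. For Mbp, an oligodendrocyte gene, the dimmer probes gave 0.60 and -0.18. The neocortical mean stood 0.29 and 0.33 above its mean over the arrays in 3M replicates 1 and 3 (others -0.21 to 0.07). In 3M replicate 1 Rspo1 (11.35) and Myl4 (12.59) were at their highest. Cux2, Rorb, Fezf2, Tbr1 and Cplx3 were there within the range of the other arrays. In 3M replicate 3 Rorb (10.02), Fezf2 (12.62), Tbr1 (14.60) and Cplx3 (10.32) were at their highest. The choroid plexus mean stood at -0.80 in 3M replicate 3 against -0.24 to 0.36 in the other arrays. The part of neocortex and choroid plexus in the marker values was not tested.

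**Figure D4:**
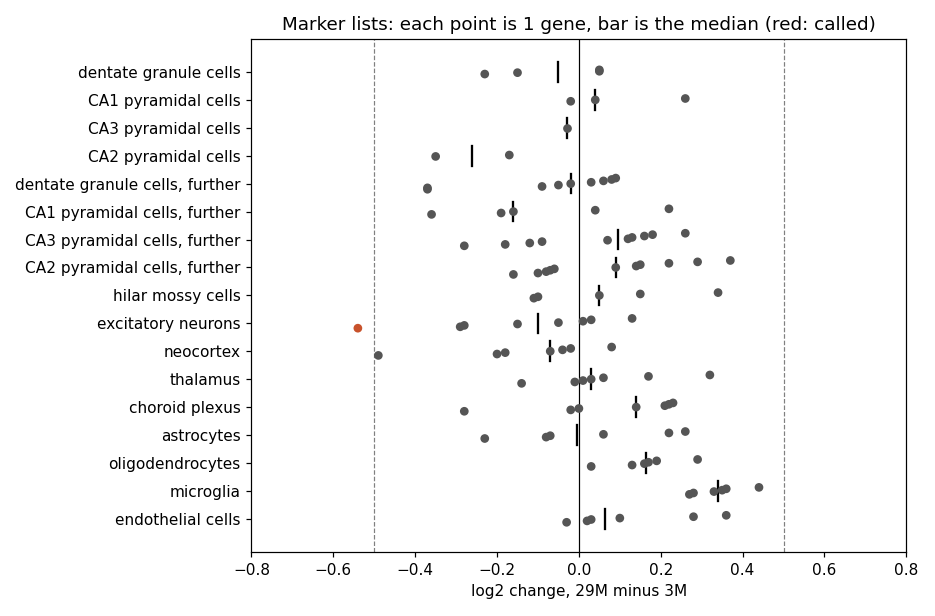
Log2 change, 29M minus 3M, of every gene in the marker lists (1 point per gene, the bar is the median of the list), with the 4 lists of the 10 marker genes on top; dashed lines mark the size of 0.5 and red marks a called gene. The marker genes lie between -0.35 and 0.26, and Nrgn among the excitatory neuron genes, at -0.54, is the only called point.

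Genes with the most similar pattern over the 8 arrays were sought for the marker with the largest change in each subfield, among 15919 genes well above background on all arrays. Likeness was the mean absolute difference of the log2 values, each set to its mean over the arrays. For Pcp4, whose values spanned 0.69, the nearest genes included Gramd2 (0.06) and Ankrd44 (0.07). For Trpc6, with a span of 0.68, they were Lpar3, Cideb and Emid1 (0.06 each). For Wfs1, with a span of 0.85, they were Pth1r, Yars and Wac (0.07 each). For Bok, with a span of 0.80, they were Slc35b3, Fbxo34 and Fam71e1 (0.09 each). No marker gene was among the nearest genes of Pcp4, Trpc6, Wfs1 or Bok, and the other markers were not searched. With 15919 genes compared, this does not bear on whether markers moved together. These genes are given as a description, with no test.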

How the data were processed

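The authors deposited 1 scanner file per array with linear spot intensities before any normalization between arrays, written, per the file headers, by Agilent Feature Extraction 10.7.3.1. The software version, scanner and array design in the headers differ from those in the study's methods, and the headers were followed. The median spot intensity was used, since mean spot intensities were not in the files used here. The deposited table of the whole series holds local backgrounds in all 8 columns (tolerance 0.001), in 7 of them those of another sample than named, and was not used.

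Control and outlier spots were removed, spots of a probe were averaged and variance stabilising normalization (own implementation in R 4.3.3, checked on simulated data) gave generalized log2 values, which understate changes of dim probes. A linear model was fitted in limma 3.58.1 with eBayes on all probes with at least 3 usable arrays per group. Normalization, model and thresholds followed the study's methods. RefSeq accessions named 26055 of 39429 probes (66.1%). A gene is given by its probe with the highest mean. The marker genes and all lists were chosen with earlier results of these data known. By rule all 10 markers are named, and of the other lists each called gene and, in each further subfield list, the gene with the largest change. Alternatives were other normalizations, filters, probe rules, slide and replicate blocks, an intensity-trended variance prior and leaving out each array. The number of arrays limits the precision. Genes with similar patterns were the 3 nearest of each examined marker, and 1 of them is not reported here.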

Additional observations from a re-analysis of the deposited data

Results flagged for a closer look

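Among 34 sets of 4 arrays examined (17 probes of named genes in each group), 2 held 1 array that stood apart from the others, with a gap to its nearest neighbour above Dixon's 95% critical value for its share of the range of the set, a limit that chance passes in about 1 of 20 sets, or 1.7 here. For Dsp (probe A_51_P101460) this was 3M replicate 1, at a log2 level of 12.46 against 12.21 to 12.25 in the other 3M arrays, a gap of 0.832 of the range. For Rgs14 it was 3M replicate 3, at 14.80 against 15.05 to 15.08, a gap of 0.904 of the range. Without these arrays the Dsp change was -0.09 and the Rgs14 change -0.23, and neither gene was called.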

How the results depend on the processing

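Over 18 alternative settings with a test none of the 10 markers was called (180 values, largest change 0.43 in size). Dsp, Trpc6, Wfs1, Pcp4 and Rgs14 kept their sign in all 18, and the other 5 changed it in 18 values. With processed signals scaled to the 75th percentile the change of Mpped1 was -0.01 and that of Bok 0.00, and with variance stabilisation of processed signals Bok was at 0.01. With slide as a fixed block Fibcd1 was at 0.07 and the dim Dsp probe at 0.01, and with normexp that probe was at 0.05. Leaving out 1 array gave -0.15 to 0.23 for Prox1, -0.03 to 0.14 for C1ql2, -0.13 to 0.09 for Fibcd1, -0.04 to 0.09 for Mpped1, -0.19 to 0.08 for Bok and -0.05 to 0.06 for the dim Dsp probe. Within slide 1, with no test, Wfs1 was at -0.04, Mpped1 at -0.18 and Pcp4 at -0.11, and within slide 3 Fibcd1 was at 0.33 and Pcp4 at -0.57. The labels do not state whether replicate numbers pair the samples. Deviations of same-numbered samples had correlations of -0.26, 0.22, -0.25 and 0.08, with no test. Only the samples numbered 2 (0.22) shared a slide, so pairing and slide cannot be told apart there. With the replicate block 0 markers were called, the adjusted p of Pcp4 was 0.162, and over all probes 292 were called higher and 193 lower, against 456 and 321 without it. Called probes numbered 812 higher and 601 lower without 3M replicate 1, 256 and 138 without 3M replicate 2, 269 and 165 without 29M replicate 1, and 272 and 186 without 29M replicate 2, with 298 higher without 3M replicate 3 and 160 lower without 29M replicate 4. The cause of these moves was not tested.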
